A study of Mus musculus with 30 samples.

Results

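Major histocompatibility complex (MHC) class II genes were followed through a mouse model of fibroblast transformation. The genes were Cd74, H2-Aa, H2-Ab1, H2-Eb1, H2-DMa, H2-DMb1 and Ciita, taken as every array probe that carries a current or older symbol of these 7 genes. They had 13 probes among the 45281 on the array, and all 13 passed the filter on dim probes. Each gene was represented by its brightest probe, so the genes were 7 of the 13870 tested.

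The 30 Illumina single-colour bead arrays compared Smchd1 null with wildtype samples in 3 stages. Wildtype mice were FVB/N, and null mice carried the MommeD1 point mutation of Smchd1, a chromatin protein of X inactivation, on that background. Primary mouse embryonic fibroblasts (MEFs) of each genotype were harvested after 2 to 3 passages. Transformed MEFs carried a p53 knockdown and overexpressed HRasV12, in both genotypes, and were harvested 2 weeks after transformation. Tumours had grown from the transformed MEFs in nude mice and were harvested fresh, so a tumour sample can hold host tissue of the recipient. Each culture group had 3 arrays, and each tumour group had 9 arrays from 3 recipient mice, whose arrays were averaged, so n = 3 in every group. Primary MEFs lay on 1 chip, transformed MEFs on another and tumours on 3 others, so stage and chip cannot be told apart, whereas both genotypes shared every chip. Whether the culture replicates came from separate embryos or dishes is not in the labels, so the spread behind each p-value is that of these samples and may be technical. Smchd1 was lower in null samples by -2.32 ± 0.09 (log2, SE, n = 3) in primary MEFs and by -2.13 ± 0.10 in transformed MEFs. In tumours its difference was -1.18 ± 0.15, which limma did not call over all genes (adjusted p = 1), and the 3 null recipients lay below the 3 wildtype ones.

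MHC class II molecules present peptides from ingested proteins to CD4+ T cells. Professional antigen-presenting cells (dendritic cells, B cells and activated macrophages) make them constitutively or on activation, while fibroblasts make them mainly after exposure to interferon gamma. H2-Aa and H2-Ab1 encode the alpha and beta chains of the A molecule, and H2-Eb1 encodes the beta chain of the E molecule. Cd74, the invariant chain, blocks the groove until the endosome. H2-DMa and H2-DMb1 form the DM heterodimer, which exchanges the remaining invariant chain fragment for peptide. Ciita is the class II transactivator, which does not bind DNA itself but joins RFX, CREB and NF-Y on the X and Y boxes of class II promoters. Nude mice lack a working thymus and so most T cells, but keep macrophages, dendritic cells, B cells and natural killer (NK) cells.

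The promoters of 3 of these genes are shown because they hold the letters of the X and Y boxes through which Ciita is known to act. Promoter sequences from RefSeq (build GRCm38.p6, from 250 bases before to 50 bases after the gene start) were matched by symbol for H2-Aa, H2-Eb1, H2-DMa and H2-DMb1. H2-Ab1, Cd74 and Ciita had no entry in the table. The core of the X box was searched as GNAAC and the core of the Y box as ATTGG, the Y core starting 28 to 34 bases after the X core on the same strand, and both strands were searched. The letters and the spacing were chosen after these promoters had been seen. Capitals mark the X core and then the Y core, each sequence reads 5′ to 3′ on the strand of its gene, and the cores do not overlap.
H2-Aa (chr17:34287852-34287926, minus strand): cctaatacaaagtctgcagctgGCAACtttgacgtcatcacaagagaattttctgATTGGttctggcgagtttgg
H2-Eb1 (chr17:34305754-34305827, plus strand): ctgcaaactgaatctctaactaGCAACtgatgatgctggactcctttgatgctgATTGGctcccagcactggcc
H2-DMb1 (chr17:34153075-34153149, plus strand): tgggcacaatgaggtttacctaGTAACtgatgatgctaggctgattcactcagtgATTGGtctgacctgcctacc

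The X core started 81 bases before the gene start in H2-Aa, 91 in H2-Eb1 and 94 in H2-DMb1. The Y core followed 33, 32 and 33 bases later. On the gene's own strand this pair of cores occurred in 0.56% of all 32851 promoters, and on either strand in 1.16%. Neither of the 2 H2-DMa entries held the pair. Of 22 genes with a promoter entry among the other genes of the pathway, described further on, 3 held it. These were H2-Oa (33 bases), H2-Ob (30 bases) and H2-Eb2 (32 bases), further genes of the class II region. A match is a description of letters and does not show that a factor binds there.

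In cultured cells, most of the class II genes gave no signal above background. Background was the 95th percentile, in each replicate, of the 22865 probes detected on no array, and lay between 6.25 and 6.38 on the normalized log2 scale. All levels below are log2 intensities on that scale, and levels of different genes are not compared, since probes differ in brightness. In tumours 6 of the 7 genes were above background in all 6 recipients, and H2-Aa was above it in 4.

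**Figure D1:**
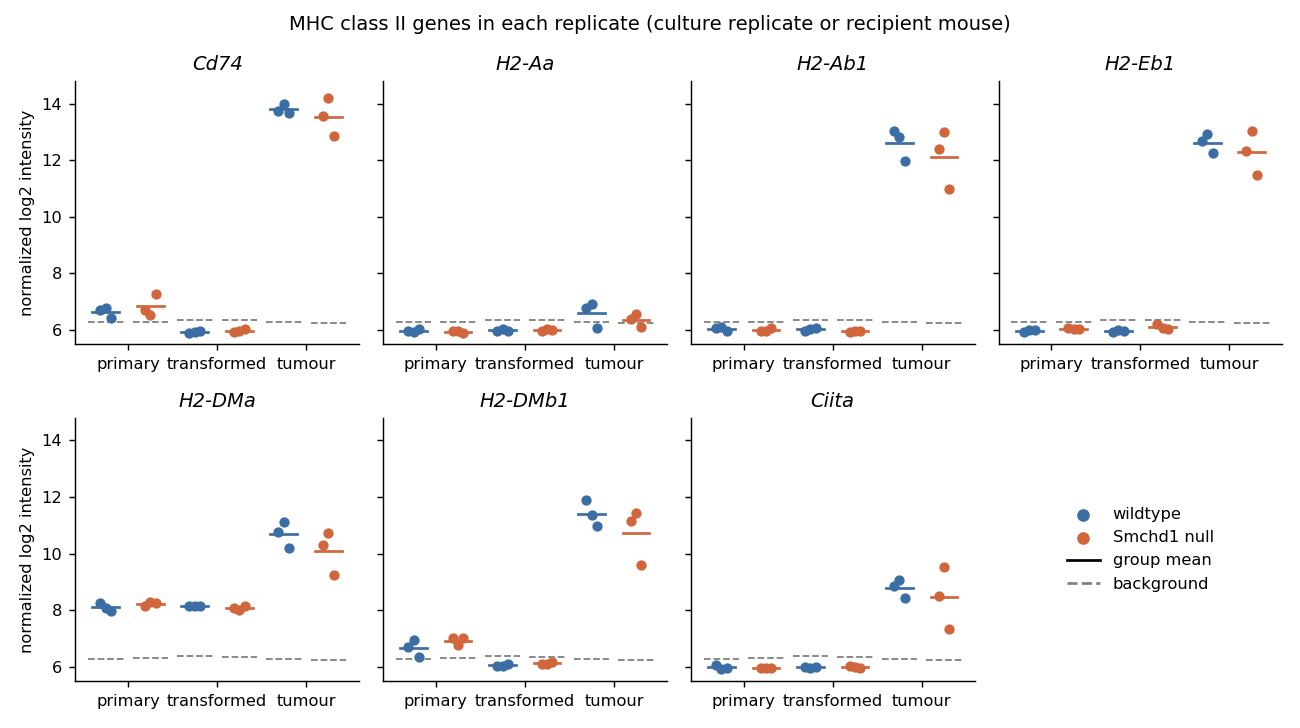
Normalized log2 intensity of the representative probe of each gene in every culture replicate and recipient mouse (points), with group means (solid lines) and mean background (dashed lines). Tumour points of Cd74, H2-Ab1, H2-Eb1, H2-DMa, H2-DMb1 and Ciita all lie above those of both culture stages, and H2-DMa alone lies above background in transformed MEFs.

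Cd74 was weakly detected in primary MEFs, at 6.71, 6.79 and 6.42 in wildtype and 6.72, 6.52 and 7.27 in null replicates. In transformed MEFs it was at 5.88, 5.93 and 5.95 in wildtype and 5.94, 5.95 and 6.03 in null, none of them above background. In tumours it was at 13.75, 13.99 and 13.66 in wildtype recipients 1, 2 and 3 and at 13.58, 14.19 and 12.84 in null recipients 4, 5 and 6. Tumours thus did not overlap with either culture stage, and the lowest tumour was null recipient 6. A second Cd74 probe, detected on 20 arrays, gave group means of 6.51 and 6.76 in wildtype and null primary MEFs. The third Cd74 probe passed detection on 18 arrays and stayed at background in all cultures.

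Both beta chains were at background in cultures and bright in tumours. H2-Ab1 lay between 5.94 and 6.11 in all 12 culture replicates, none above background, by its representative probe. In tumours it was at 13.02, 12.83 and 11.97 in wildtype and 12.39, 13 and 10.98 in null recipients. Its other probes were above background in at most 1 of 3 wildtype and 2 of 3 null primary replicates, and in no transformed replicate. H2-Eb1 lay between 5.92 and 6.21 in cultures and was not above background in any of them. In tumours it was at 12.68, 12.94 and 12.26 in wildtype and at 12.33, 13.02 and 11.48 in null recipients. All 3 H2-Ab1 probes and the H2-Eb1 probe were detected on 18 arrays each, against 18 tumour arrays in the study, although the detection columns could not be assigned to samples.

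H2-Aa, the alpha chain of the A molecule, had a single probe that was detected on only 5 arrays. It was not above background in cultures, where it lay between 5.91 and 6.04. In tumours it was at 6.79, 6.91 and 6.08 in wildtype and 6.39, 6.55 and 6.1 in null recipients, above background in 2 of 3 recipients of each genotype. The weak H2-Aa signal stood beside strong H2-Ab1 signal in the same tumours, and the response of this probe was not tested.

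The DM genes differed from the chains in cultures. H2-DMa was above background in every sample, at 7.97 to 8.29 in primary and 7.99 to 8.15 in transformed MEFs, and both of its probes were detected on all 30 arrays. In tumours H2-DMa was at 10.77, 11.11 and 10.2 in wildtype and 10.29, 10.72 and 9.25 in null recipients. H2-DMb1, its partner, was just above background in primary MEFs, at 6.71, 6.96 and 6.33 in wildtype and 7.0, 6.77 and 7.0 in null replicates. It was at 6.01 to 6.17 in transformed MEFs, not above background. In tumours H2-DMb1 was at 11.9, 11.37 and 10.96 in wildtype and 11.16, 11.45 and 9.6 in null recipients.

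Ciita, the transactivator, was not above background in cultures, where it lay between 5.91 and 6.07. In tumours it was at 8.86, 9.07 and 8.43 in wildtype and 8.5, 9.52 and 7.33 in null recipients. Its second probe, which carries the older symbol C2ta, was detected on 10 arrays. That probe was above background in 3 of 3 wildtype and 2 of 3 null recipients, with group means of 7.03 and 6.91.

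The comparison of tumours with transformed MEFs asks what differs once the transformed cells have grown in a host. All 7 genes rose in wildtype tumours and 6 of 7 in null tumours, by limma with Benjamini-Hochberg adjustment at 0.05. Among all genes, 19.4% rose in wildtype and 22.8% in null tumours. By their representative probes, H2-Aa, H2-Ab1, H2-Eb1 and Ciita were above background in tumours only. Such genes pass the filter on dim probes mainly through tumours, so the count of calls is a description and not a test. Markers of other host cells moved in the same comparison. All 4 erythroid markers rose in both genotypes (median log2 difference 5.62 in wildtype and 4.83 in null), as did 8 and 7 of 10 endothelial markers (2.35 and 2.42) and 17 and 16 of 17 macrophage markers (4.1 and 3.59). Their part in the class II values was not tested. In these bulk samples, more cells of a type and more RNA per cell cannot be told apart. Where a culture group was not above background, the fold is a lower bound, the tumour mean against the higher of the background and the probe's own value in each replicate.

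Cd74 exceeded its level in transformed MEFs at least 172-fold in wildtype tumours and at least 145-fold in null tumours (adjusted p = 2.13e-12 and 3.47e-12, limma, n = 3). H2-Eb1 was at least 76.4-fold and 60.4-fold higher, and H2-Ab1 at least 75.4-fold and 54.1-fold higher. H2-DMb1 was at least 32.9-fold higher in wildtype and 20.7-fold higher in null tumours. These 4 genes had the widest margins of the 7 by their representative probes, which does not rank the genes, since probes differ in brightness. H2-DMa, which the transformed MEFs did express, was 5.86-fold higher in wildtype (log2 2.55 ± 0.24, SE) and 4.07-fold higher in null tumours (2.03 ± 0.24). Ciita was at least 5.34-fold and 4.25-fold higher. H2-Aa was at least 1.17-fold higher in wildtype tumours (limma adjusted p = 0.00874, 2 of 3 recipients above background). In null tumours H2-Aa differed by 0.35 ± 0.17 on the log2 scale and was not called (limma adjusted p = 0.0965).

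The bound depended on the probe. For Cd74 the other probes gave at least 159-fold and 26.3-fold in wildtype tumours, and for H2-Ab1 at least 34.6-fold and 7.23-fold. The second H2-DMa probe gave 3.97-fold, and the second Ciita probe at least 1.58-fold. All 13 probes had a positive difference between tumours and transformed MEFs in both genotypes.

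**Figure D2:**
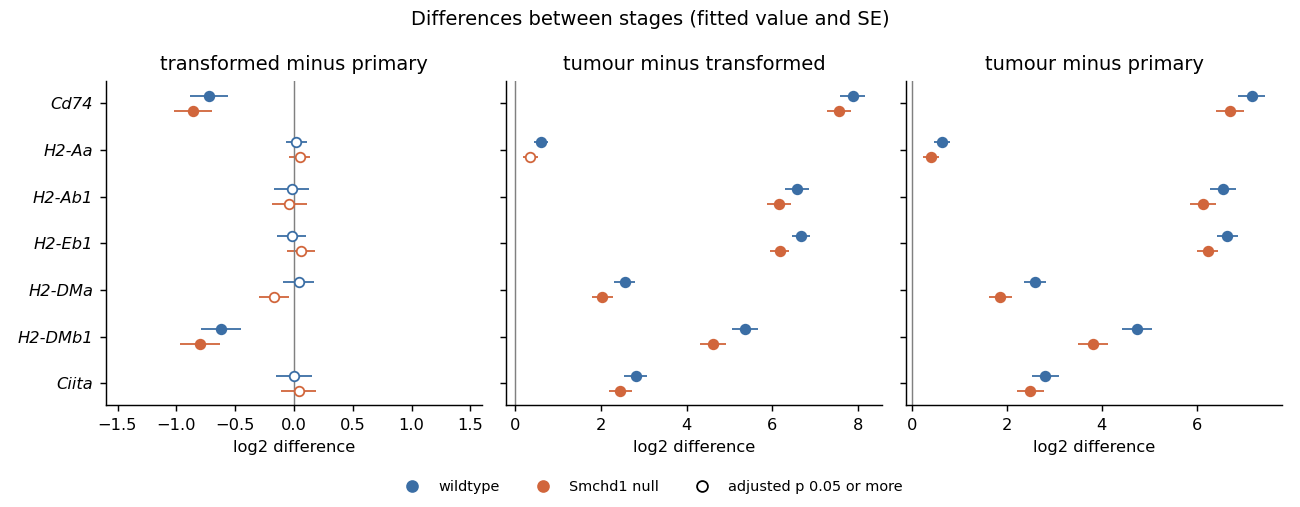
Fitted log2 differences between stages (points) with SE (bars) for each gene in wildtype and null samples, filled where limma's adjusted p was under 0.05. Cd74 and H2-DMb1 lie below 0 from primary to transformed MEFs, and every gene lies above 0 in both tumour comparisons. Fitted differences against a group at background are not bounds.

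Compared with primary MEFs, all 7 genes were called higher in tumours of both genotypes, where 24.8% of all genes rose in wildtype and 27.7% in null. This count has the same limit from the filter on dim probes. Cd74 was 143-fold higher in wildtype (log2 7.16 ± 0.29, SE) and 104-fold higher in null tumours (6.7 ± 0.29). H2-DMb1 was 26.8-fold and 14-fold higher, and H2-DMa 6.04-fold and 3.63-fold higher. These 3 genes were above background on both sides. H2-Eb1 was at least 80.8-fold and 63.4-fold higher, H2-Ab1 at least 79.7-fold and 56.8-fold, and Ciita at least 5.65-fold and 4.46-fold. All these values are of the representative probes, and other probes gave smaller ones. For H2-Ab1 they gave 38.4-fold and at least 7.64-fold in wildtype tumours, and 25-fold and 5.16-fold in null tumours. The second Ciita probe gave at least 1.67-fold and 1.54-fold, and the third Cd74 probe at least 27.8-fold and 19.5-fold. The H2-Aa call in null tumours (log2 0.40 ± 0.17, limma adjusted p = 0.0497) was lost in an unweighted fit of these stages alone (adjusted p = 0.109) and without any single primary null replicate or either of null recipients 4 and 5 (adjusted p = 0.0596 to 0.269). In wildtype tumours H2-Aa was not called without recipient 1, either against primary (adjusted p = 0.0562) or transformed MEFs (0.0873), nor without recipient 2 against transformed MEFs (0.0608).

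From primary to transformed MEFs, 2 of the 7 genes fell in each genotype, Cd74 and H2-DMb1, and the other 5 were not called. H2-Aa, H2-Ab1, H2-Eb1 and Ciita were above background in neither stage by their representative probes. A fall could therefore be seen only in Cd74, H2-DMa and H2-DMb1. Among all genes, 25.5% fell in wildtype and 25.8% in null MEFs. Cd74 differed by -0.72 ± 0.16 in wildtype (limma adjusted p = 0.000838) and -0.86 ± 0.16 in null (0.000135), which bounds the fall at 1.2-fold and 1.39-fold at least. H2-DMb1 differed by -0.62 ± 0.17 (0.00511) and -0.80 ± 0.17 (0.000598), at least 1.23-fold and 1.48-fold lower. The third Cd74 probe was not above background in either stage. H2-DMb1 was not called in a fit that shared the spread over all stages without weights (adjusted p = 0.187 in wildtype and 0.0792 in null), nor without the filter on dim probes (0.183 and 0.0715). H2-DMa, above background in both stages, differed by 0.04 ± 0.13 in wildtype and -0.17 ± 0.13 in null.

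Stage comparisons came from a fit of all 6 groups with a weight for each stage. On simulated data this fit did not hold the nominal error. With 200 of 13870 genes changed, false genes made up 12.9% to 15.3% of its calls between culture stages and 22.5% to 24.7% between tumours and cultures. An unweighted fit of the stages compared gave 7.15% to 9.07% and 12.6% to 14.5%. In that fit the SE of Ciita between tumours and transformed MEFs rose from 0.27 to 0.41, and its adjusted p was 0.000395 in wildtype and 0.000776 in null. Of the calls of class II genes, the unweighted fit changed only that of H2-Aa in null tumours against primary MEFs. In the data the weighted fit called 38.4% to 55% of all genes in these comparisons, far more than were changed in the simulation. The simulated shares of false calls therefore cannot be carried over to the real calls.

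The genotype comparison asks whether loss of Smchd1 altered the class II genes within a stage. None of the 7 genes was called in any stage, in fits of each stage alone. Among all genes limma called 0.0505% for primary MEFs, 6.53% for transformed MEFs and 0% for tumours. Of the tumour genes, 313 of 13870 had an unadjusted p under 0.05, and none of the 7 was among them. On simulated tumours the same fit recovered 25.2% of changes of 1 and 62.4% of changes of 2 on the log2 scale, so changes of this size could be missed.

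In tumours all 7 differences, null minus wildtype, were negative, and all 7 gene ranges overlapped between genotypes. H2-DMb1 differed by -0.68 ± 0.53 (95% interval -1.95 to 0.60) and H2-DMa by -0.61 ± 0.43 (-1.65 to 0.44). H2-Ab1 differed by -0.49 ± 0.56 (-1.85 to 0.88) and Ciita by -0.34 ± 0.54 (-1.66 to 0.99). The intervals of H2-Eb1 (-1.34 to 0.65), Cd74 (-1.11 to 0.58) and H2-Aa (-0.89 to 0.40) also included 0. Without null recipient 6, Cd74 differed by 0.09 ± 0.25, H2-Ab1 by 0.09 ± 0.39, H2-Eb1 by 0.05 ± 0.31 and Ciita by 0.22 ± 0.37, so the sign of these 4 rested on that mouse. H2-DMb1 differed by -0.11 ± 0.31 without it. Some marker lists of other cells lay on the same side in this comparison and others did not, none of their genes called. The difference was negative for 17 of 17 macrophage markers (median -0.25), 9 of 10 endothelial markers (-0.23), 4 of 4 erythroid markers (-0.26) and 4 of 5 dendritic cell markers (-0.10). It was positive for 5 of 8 fibroblast markers (median 0.06). The medians of the B cell, NK cell and T cell lists, of 3, 2 and 1 measured genes, were -0.02, 0.02 and 0.37. The part of these cells in the class II differences was not tested.

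**Figure D3:**
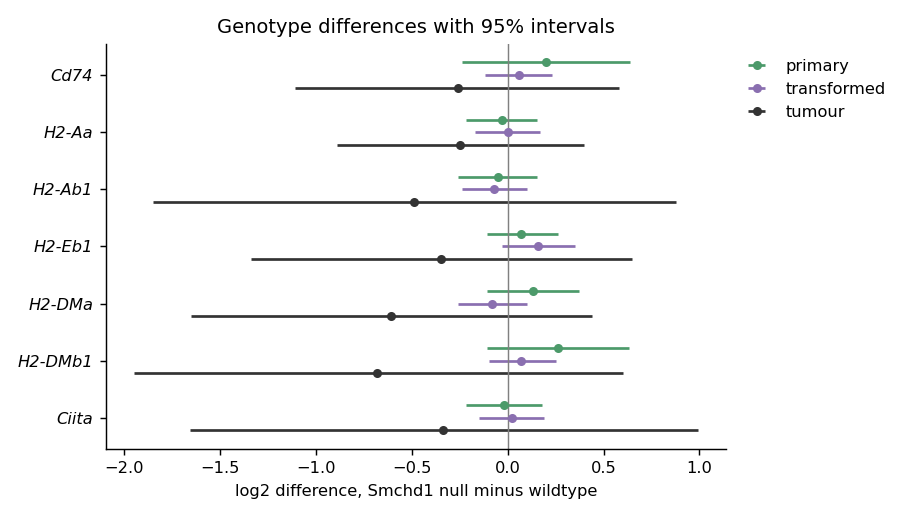
Log2 difference, Smchd1 null minus wildtype, of each gene at each of the 3 stages (points) with 95% intervals (bars) from limma fits of each stage alone. Every interval includes 0, and tumour intervals are the widest.

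In primary MEFs the differences ranged from -0.05 ± 0.09 (H2-Ab1) to 0.26 ± 0.16 (H2-DMb1, 95% interval -0.11 to 0.63). In transformed MEFs H2-DMa, the only member above background there, differed by -0.08 ± 0.08. The change of the genotype difference from primary to transformed MEFs was called for none of the 7 genes and for 2.6% of all genes. Its change from transformed MEFs to tumours was called for none of the 7 and for 0% of all genes, while 800 genes had an unadjusted p under 0.05 by limma.

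The tumours differed from mouse to mouse within each genotype. Null recipient 6 had the lowest level of 6 of the 7 genes. H2-Aa was lowest in wildtype recipient 3, at 6.08 against 6.1 in recipient 6. Wildtype recipient 3 was second lowest for H2-Ab1, H2-Eb1, H2-DMa, H2-DMb1 and Ciita. The highest level was in null recipient 5 for Cd74, H2-Eb1 and Ciita, in wildtype recipient 1 for H2-Ab1 and H2-DMb1, and in wildtype recipient 2 for H2-Aa and H2-DMa. The range over recipients was widest for H2-DMb1, 2.3 on the log2 scale, and was 2.18 for Ciita and 1.36 for Cd74.

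Arrays of the same recipient also differed. The SD between the 3 arrays of a recipient was 0.44 for Cd74, 0.38 for H2-Ab1 and 0.45 for Ciita. The SD between recipients of a genotype was 0.50, 0.83 and 0.81 for the same genes. In recipient 6 the highest Ciita array was at 7.46 and in recipient 5 the lowest was at 9.34, so these mice did not overlap. For Cd74 the highest array of recipient 6 (13.03) lay below the lowest of recipient 5 (13.86). Most neighbours in the order overlapped, such as recipients 1 and 2 for Cd74, at 13.53 to 14.1 and 13.25 to 14.78.

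**Figure D4:**
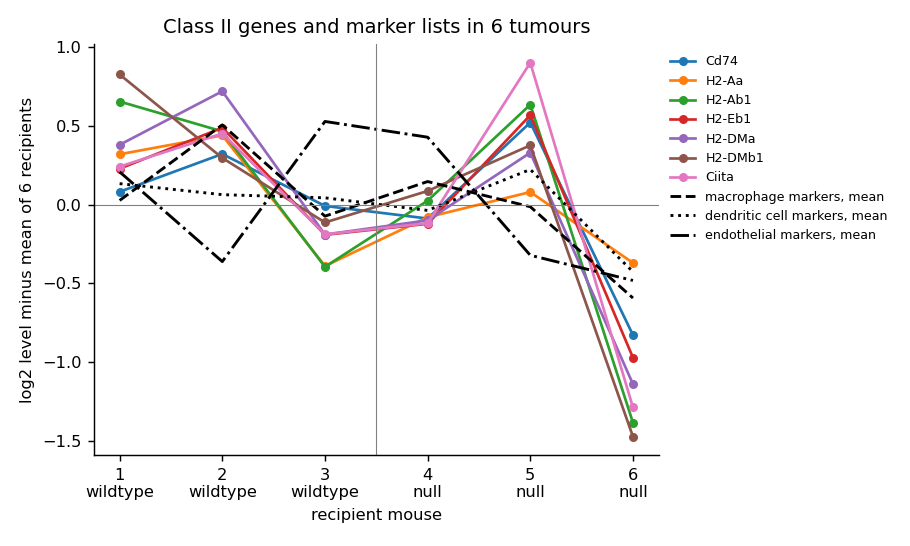
Log2 level of each gene in each of the 6 recipients minus its mean over the recipients (coloured lines), with the same for the means of 3 marker lists (black lines). Null recipient 6 is lowest for all coloured lines except H2-Aa, and for the means of the macrophage, dendritic cell and endothelial lists.

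The class II genes moved together over the 6 recipients. Pearson's r between pairs of the 7 genes ranged from 0.66 to 0.99 over 21 pairs. Without recipient 6 it ranged from 0.31 to 0.97 over 5 recipients. These values are a description, since the genes were measured on the same arrays and in the same tissue. The 5 genes most like the mean of Cd74, H2-Aa, H2-Ab1 and H2-Eb1 over the recipients were Galnt9 (r = 0.993), Dpep2 (0.991), LOC270152 (0.99), Cytip (0.988) and Fgf10 (0.986). With so few tumours, 185 of 13863 other genes had an r over 0.9. Over the 6 primary cultures the nearest genes were Clptm1l (0.996), Sars (0.993), Gimap8 (0.989), Anxa8 (0.988) and Agpat4 (0.987), and 177 genes had an r over 0.9. There, 3 of the 4 averaged genes were at background.

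Macrophage markers and some of the class II genes parted in the primary cultures. Of 17 measured macrophage markers, 16 were above background in every primary replicate, and their mean lay between 10.22 and 10.62. Lyz1 and Lyz2, the lysozymes, were at 14.29 and 13.06 in wildtype, and Laptm5, a lysosomal protein of leukocytes, at 13.43. In tumours the mean of the list was 9.97 to 11.07, with 16 or 17 markers above background. The primary cultures thus carried this list at mean levels that overlapped those of tumours. H2-Aa, H2-Eb1 and Ciita were not above background there, and Cd74 was 143-fold (wildtype) and 104-fold (null) below its tumour level. H2-DMa and H2-DMb1 were above background in every primary replicate. Of the 17 markers, 5 were called higher and 3 lower in wildtype tumours than in primary MEFs, and 4 higher and 4 lower in null. In transformed MEFs the mean was 6.23 to 6.32, with 3 to 5 of 17 above background. Ptprc, the pan-leukocyte marker, and Fcer1g were detected on no array.

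**Figure D5:**
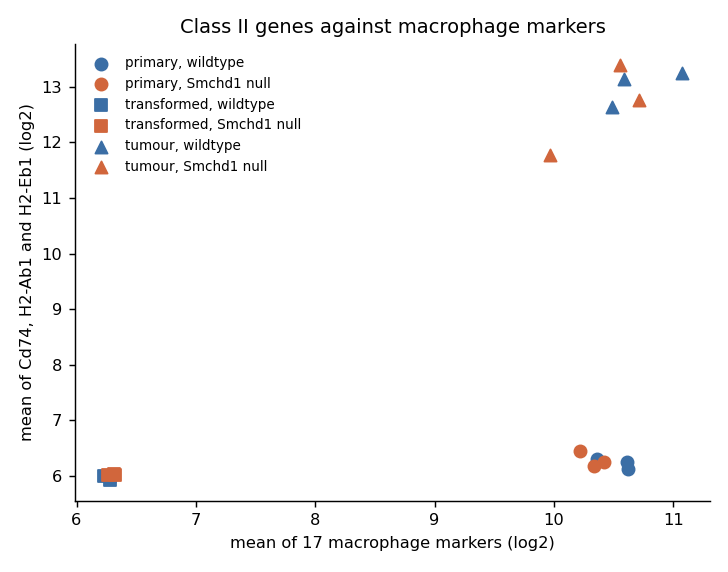
Mean log2 level of Cd74, H2-Ab1 and H2-Eb1 against the mean of 17 macrophage markers in each of the 18 replicates. Primary MEFs (circles) lie at 10.22 to 10.62 on the horizontal axis, within the range of tumours (triangles), but at 6.12 to 6.45 on the vertical axis, where tumours lie at 11.77 to 13.4.

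Markers of dendritic cells were sparse. Of 12 listed dendritic cell markers on the array, 5 passed the filter, and Flt3, Xcr1, Clec9a, Cd209a and Ccl22 were detected on no array. In wildtype tumours the 3 highest were Siglech, a receptor of plasmacytoid dendritic cells (mean 8.1), the chemokine Ccl17 (7.1) and the lymph node homing receptor Ccr7 (7.05). All 3 were called higher in tumours than in either culture stage in both genotypes, and 1 of the 5 was called lower than in primary MEFs. The 3 were picked for their level in tumours, and Siglech and Ccl17 were above background in no culture. Their calls partly follow from that choice and from the filter, and are a description only. Siglech, not above background in any culture, exceeded its level in primary MEFs at least 3.51-fold in wildtype tumours and at least 3.28-fold in null tumours (limma adjusted p = 8.06e-06 and 8.59e-06). Batf3 and Zbtb46, also on the list, were highest in primary MEFs, at 7.73 and 6.61 in wildtype.

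Most defining B and T cell genes passed detection on no array. Ms4a1, Pax5, Cd22 and Blk of the B cell list and Cd3e, Cd3d, Cd3g, Cd2, Cd4 and Cd8a of the T cell list were detected on no array. Some of them still passed the background used here, in cultures as well as tumours. Cd2 did so in 3 of 3 wildtype and 2 of 3 null recipients. Cd22 did in 2 of 3 primary replicates of each genotype and 2 of 3 null recipients, and Cd4 in 3 of 3 null transformed replicates. Lck, a T cell kinase, was detected on 23 arrays and was above background in every sample, at 6.65 and 7.02 in wildtype and null tumours and 7.06 to 7.49 in cultures. The 3 measured B cell list genes had a mean of 6.81 to 7.0 in tumours and 6.89 to 7.35 in cultures. Against each culture stage, in both genotypes, 1 of the 3 rose in tumours and 1 fell. Fcmr, a receptor for immunoglobulin M, rose to 7.65 in wildtype and 7.28 in null, from at most 6.35 in cultures. Ebf1, a B cell transcription factor, fell from 9.2 and 9.37 in primary and 8.74 and 8.43 in transformed MEFs to 6.84 and 6.82. Cd79b, part of the B cell receptor, was detected on 5 arrays, at 6.36 and 6.67 in tumours and 6.72 and 6.56 in primary MEFs, and was not called in tumours. Of the NK cell list, Prf1, perforin, was at 11.67 in wildtype and 11.86 in null tumours against 7.81 to 8.41 in cultures. Nkg7 was at 6.8 and 6.64 in tumours, and Ncr1 and Eomes were detected on no array.

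Over the 6 recipients, the class II genes followed the dendritic cell list with r from 0.59 to 0.96, the macrophage list with r from 0.74 to 0.90 and the endothelial list with r from -0.24 to 0.36. Without recipient 6 the first 2 ranges became 0.33 to 0.85 and 0.05 to 0.68, so the relation with macrophage markers rested largely on that mouse. Without recipient 6 the endothelial range was -0.97 to -0.38. When the 2 recipients farthest from the median of each list were left out, over 4 recipients, r ranged from 0.50 to 0.77 with the dendritic cell list (without 5 and 6). It ranged from -0.36 to 0.31 with the macrophage list (without 2 and 6) and from 0.29 to 0.71 with the endothelial list (without 3 and 4), so these relations depended on which mice were included. The dendritic cell list held only 5 measured genes, with means between 6.5 and 7.15 in tumours. The part of these cells in the class II values was not tested.

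Other genes of the pathway divided between higher, lower and uncalled in tumours. The list held 29 genes that encode further class II chains, endosomal proteases, promoter-binding subunits, ubiquitin ligases, costimulatory molecules and the interferon gamma pathway, and 25 were measured. Against transformed MEFs, 13 rose and 4 fell in wildtype tumours, and 13 rose and 3 fell in null tumours. The median log2 difference of the 25 was 0.54 and 0.71, beside -0.02 and -0.01 over all genes, of which 19% fell in wildtype and 21.3% in null. Against primary MEFs, 11 rose and 3 fell in wildtype and 10 rose and 4 fell in null tumours, where 25.4% and 27% of all genes fell and the shares that rose are those given for the class II genes.

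The 4 pathway genes with the smallest p against transformed MEFs were the same in both genotypes. H2-Ea, the alpha chain of the E molecule, lay between 5.94 and 6.18 in cultures, not above background. In tumours it was at 11.92, 12.27 and 11.43 in wildtype and at 11.39, 11.31 and 10.28 in null recipients. It was at least 45.5-fold higher than in transformed MEFs in wildtype and 24.8-fold in null tumours. H2-DMb2, a second DM beta chain, was at least 25.5-fold and 15.8-fold higher. Probes of H2-DMb1 and H2-DMb2 can share targets, since these genes are close copies, so their split is uncertain. Cd86, a ligand of CD28 on T cells, was at least 17.5-fold and 13.2-fold higher, and Cd40, which receives T cell help, at least 6.56-fold and 4.56-fold. Null recipient 6 was the lowest of the 6 recipients for H2-Ea, H2-DMb2 and Cd86, but not for Cd40, which was at 8.71 there and lowest in null recipient 4, at 8.35. Of the pathway genes whose promoters hold the X and Y cores, H2-Ob and H2-Eb2 were detected on no array. H2-Oa, a chain of the DO molecule that inhibits DM, was above background in all 6 recipients and at least 2.01-fold higher in wildtype and 1.52-fold higher in null tumours than in transformed MEFs (limma adjusted p = 2.94e-05 and 0.000542).

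Of the promoter-binding subunits, Rfx5 was detected on no array and Rfxank on 1, while Rfxap was detected on all 30 at 9.39 to 9.75 in every group mean. Nfyb and Nfyc, subunits of NF-Y, were also detected on all 30 arrays. Group means of Nfyb lay between 10.49 and 10.75, and those of Nfyc between 12.13 and 12.61. Nfya and Creb1 were detected on 14 and 23 arrays, with group means of 6.55 to 6.94 and 6.48 to 7.21. Rfxap, Nfyb and Nfyc were thus detected in cultures where Ciita was not above background, while Rfx5 and Rfxank did not pass the filter on dim probes. A link with Ciita was not tested.

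In the interferon gamma pathway, Jak1 was lower in tumours than in either culture stage in both genotypes. Jak1, a receptor-bound kinase, fell by 2.75 ± 0.12 in wildtype and 2.53 ± 0.12 in null from primary to transformed MEFs on the log2 scale. In wildtype tumours it was not above background, at least 10.3-fold lower than in primary MEFs, and in null tumours it was above background in 1 of 3 recipients (log2 -3.5 ± 0.21). The Jak1 probe that represents the gene was detected on 10 arrays. Irf1, an interferon-induced transcription factor, was detected on all 30 arrays, at group means of 11.25 to 11.65. Ifngr2, of the same pathway and also detected on all 30 arrays, lay the other way from Jak1. Its means in wildtype and null were 11.68 and 11.52 in tumours, 9.39 and 9.62 in transformed MEFs, and 8.74 and 8.64 in primary MEFs.

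From primary to transformed MEFs, 5 pathway genes rose and 8 fell in wildtype, and 4 rose and 9 fell in null. Among all genes 26.8% and 29.2% rose. Besides Jak1, Cd83, a surface marker of activated dendritic cells, was at least 2.59-fold lower in wildtype and 2.02-fold lower in null. Cd86 was at least 1.43-fold lower in wildtype, and in null its mean was 5.99, not above background, against 6.66 in primary MEFs. Lgmn, an endosomal protease, fell by 1.03 ± 0.12 and Ifi30, the lysosomal thiol reductase of antigen processing, by 0.87 ± 0.09 in null cells. In wildtype their means were also lower in transformed than in primary MEFs, 11.62 against 12.27 for Lgmn and 10.43 against 10.94 for Ifi30. Ctsl, cathepsin L, which can cut the invariant chain, rose by 1.23 ± 0.11 in wildtype and by 0.36 ± 0.11 in null.

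Between genotypes, Ctsl and Ifi30 were lower in null transformed MEFs, where limma called 3.55% of all genes lower. Ctsl was at 9.03, 9.22 and 9.32 in wildtype and 8.48, 8.36 and 8.53 in null replicates (-0.73 ± 0.10, limma adjusted p = 0.00831). Ifi30 differed by -0.51 ± 0.07 (limma adjusted p = 0.0113). The genotypes did not overlap in either gene. No pathway gene was called between genotypes in primary MEFs or in tumours.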

How the data were processed

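Expression values were the deposited log2 intensities of 30 Illumina MouseWG-6 arrays. The authors' processing, per the submitters' processing notes, used BeadStudio, R 2.15.1 and limma 3.12.1, and the role of each is not stated there. The deposited scanner tables hold intensities and detection p-values per the file headers. Their 480 columns of array values match no sample label and were assigned to none. They supplied only probe names and, for each probe, the number of arrays with a detection p under 0.01. The 30 arrays were quantile normalized together, and probes detected on at least 3 arrays were kept (20254).

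Differences were tested with limma 3.58.1 in R 4.3.3, with Benjamini-Hochberg adjustment over 13870 genes, on recipient means. Genotype differences used each stage alone (4 residual degrees of freedom), and stage differences used all 6 groups with stage weights (12). The fits were checked on simulated data, 5 runs per comparison. Members and gene lists were chosen with earlier results of these data known. Named pathway genes are up to 4 called genes per comparison with the smallest p, and marker lists give up to 3 genes with the highest mean in the group described. Rfxap, Nfya, Nfyb, Nfyc, Creb1, Irf1, Ifngr2, H2-Oa, Lck and the undetected pathway genes were named after their values were seen. Precision is limited by the number of arrays, and 12 alternatives were tried. Some listed genes are not reported here.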

Additional observations from a re-analysis of the deposited data

Results flagged for a closer look

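Dixon's test at 95% was run on the arrays of each tumour group, in 14 gene and group combinations of the class II genes. No array stood apart from the other 8. The test marks about 1 in 20 by chance when values are independent. That rate cannot be relied on here, since each recipient supplied 3 arrays, with a correlation of 0.384 within recipients. The test looks for a single array, so it cannot show whether a whole recipient, such as null recipient 6, stood apart. The culture groups, with 3 arrays each, were too small for Dixon's test. No class II gene had a genotype difference that changed between stages.

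In the pathway list, the genotype difference of Ctsl, cathepsin L, changed between culture stages. It was lower in transformed than in primary MEFs by -0.87 ± 0.15 on the log2 scale (limma adjusted p = 0.00379). In primary MEFs Ctsl was at 8.18, 7.85 and 7.84 in wildtype and 8.07, 8.19 and 8.02 in null replicates, which overlapped, and in transformed MEFs the null replicates lay below the wildtype ones. Of 20 alternatives, 18 called it, with differences of -0.98 to -0.81 and adjusted p from 0.00169 to 0.199. The highest adjusted p came from the fit that shared the spread over all stages without weights. The cause was not tested.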

How the results depend on the processing

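Of 1277 alternative values of the 7 genes, none reversed a call. The calls that changed were those of H2-Aa, of H2-DMb1 between cultures, and of H2-DMa between the null culture stages. H2-DMa was called lower in transformed than in primary null MEFs without further normalization (-0.35, limma adjusted p = 0.0228) and after cyclic loess (-0.32, 0.0427). H2-Aa in null tumours against transformed MEFs was called without further normalization (adjusted p = 0.0173) and on tumour chip 5 alone (0.0468), and with probes required on more arrays it was left out. The count of class II genes that fell from primary to transformed MEFs was 1 in each genotype with a shared spread and 1 in each without the filter on dim probes.

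Counts over all genes moved more. With a shared spread they were 15, 147 and 19 for genotype in primary MEFs, transformed MEFs and tumours, 4558 (wildtype) and 5027 (null) between cultures, and 30 and 8 for the changes of the genotype difference. Without the filter they were 2 in primary and 601 in transformed MEFs, and 61 and 6 for those changes. An intensity trend gave 13 in primary MEFs. The 9 tumour arrays per genotype, with recipient and chip as blocks, gave 7. Chip 4 alone gave 18 and chip 5 alone gave 2 for the change from transformed MEFs to tumours, and chip 5 gave 2992 between those stages in wildtype.

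Leaving out 1 replicate gave 2 to 4 genes (7 with all) for genotype in primary MEFs, 243 to 552 (906) in transformed MEFs and 0 to 0 in tumours. The lowest in transformed MEFs was without wildtype replicate 3, which also gave 228 in the range of 228 to 403 (361) for the change between cultures. The change from transformed MEFs to tumours gave 0 to 4. Between cultures the range was 6372 to 6826 (7246) in wildtype and 6949 to 7210 (7626) in null. Tumours against transformed MEFs gave 3270 to 5719 (5322, lowest without wildtype recipient 1) and 3923 to 6002 (6111, lowest without null recipient 4). Tumours against primary MEFs gave 5205 to 6948 (6968) and 5600 to 7461 (7591). Class II counts were 0 to 0 for every genotype comparison, 2 to 2 between cultures, 6 to 7 (wildtype) and 6 to 6 (null) for tumours against transformed MEFs, and 6 to 7 in both for tumours against primary MEFs. The cause was not tested.

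With the replicate number as a block, genotype gave 2 genes in primary and 682 in transformed MEFs, and 0 class II genes in each. Same-numbered samples correlated at -0.01, -0.37 and -0.07 in primary and 0.07, 0.06 and 0.05 in transformed MEFs. Samples of different number correlated at -0.27 to 0.35 in primary and -0.05 to -0.01 in transformed MEFs. With so few pairs, whether same-numbered samples share an origin cannot be told.

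Precision is limited by 3 samples per group, and by the background for genes not above it in cultures.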
